A study of Mus musculus with 2 samples.

Results

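Aminoacyl-tRNA synthetases were examined in ribosome-associated RNA from the dentate gyrus of adult mice. The members were all gene symbols made of 1 letter and "ars", with or without the digit 2, together with Eprs, Farsa and Farsb. This gave 37 of the 32531 gene symbols counted, of which 20 encode cytosolic and 17 encode mitochondrial enzymes. Both libraries came from untreated mice that carry the Lypd1-EGFP/Rpl10a transgene, line OI82, and both were immunopurified. In such a line the ribosomal protein Rpl10a is fused to EGFP and made under the regulatory sequence of Lypd1, and ribosomes that carry it were pulled down with antibodies against EGFP. Reads come from every cell in which that sequence was active and from any RNA carried along. No input RNA was analysed here, so values are levels within the purified RNA. Whether each replicate is 1 animal or a pool is not stated in the labels, nor are strain, sex or exact age, so the spread between them may be technical.

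Each synthetase joins 1 amino acid to its tRNAs, using ATP, and so sets which amino acid a codon receives. The nuclear genome encodes one set of enzymes for the cytosol and another for the matrix of mitochondria, where a separate genome is translated. Gars and Kars encode both forms from 1 gene. There are 2 structural classes, I and II, which differ in the fold of the catalytic domain. In animals several cytosolic synthetases are held in a multi-synthetase complex by the scaffold proteins Aimp1, Aimp2 and Eef1e1. In humans, variants of several cytosolic synthetase genes cause peripheral neuropathy, and variants of mitochondrial ones cause leukodystrophy, encephalopathy or hearing loss.

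Gene lines summed to 31309643 counts in replicate 1 and to 32711412 in replicate 2. Granule cell markers were detected in full (8 of 8, at a median of 565 counts per 1000000 gene counts, CPM), while 0 of 4 microglial markers were detected and neither C1qa nor C1qb had a read (0 counts). Of all gene symbols 38.1% were detected (1 CPM or more in each library). The other marker lists were low, with medians of 12.9 CPM for oligodendrocytes, 12.5 CPM for astrocytes, 12.4 CPM for the CA fields, 1.92 CPM for endothelial cells, 1.60 CPM for interneurons and 1.17 CPM for mossy cells. The libraries differed by far more than counting error, with a chi-square statistic 79.8 times its degrees of freedom, so they are separate libraries.

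All 37 synthetase genes were detected, which means 1 CPM or more in each library, against 38.1% of all gene symbols. At 10 CPM or more in each library the number was 28 of 37, against 24.6% of all gene symbols. The lowest single value among the 74 was 2.66 CPM, or 87 counts, so no member was near the limit that a count of 0 allows (0.0958 CPM in replicate 1 and 0.0917 CPM in replicate 2, counting error only). The members took 0.482% of gene counts in replicate 1 and 0.499% in replicate 2, most of it on the line of Lars2.

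Levels of different genes were compared as CPM per kb of exon, since longer transcripts collect more reads. On that scale the cytosolic synthetases had a median of 8.76 ± 0.442 (SD, n = 2) and the mitochondrial ones a median of 2.71 ± 0.588, while all detected genes had a median of 5.18. That last median is over the 11448 of 12402 detected genes that had an exon length. The cytosolic median was 3.95 times the mitochondrial one in replicate 1 and 2.70 times in replicate 2. Without Lars2 these ratios were 4.38 and 3.45. The cytosolic set thus stood above the typical detected gene and the mitochondrial set below it in both libraries. In CPM, without length, the medians were 44.8 for the cytosolic and 12.6 for the mitochondrial genes.

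Nars, which charges tRNA with asparagine, was the highest cytosolic member. It had 143 CPM in replicate 1 and 187 CPM in replicate 2, or 32.8 and 43.0 CPM per kb. It lies on chromosome 18 (64499647 to 64516652, minus strand, GRCm38). Farsb, the beta subunit of the phenylalanine enzyme, followed at 28.0 and 33.8 CPM per kb. Hars, the histidine enzyme, was at 26.4 and 34.5 CPM per kb. Gars, the glycine enzyme of both compartments, which is mutated in a form of Charcot-Marie-Tooth disease in humans, was at 22.6 and 31.1 CPM per kb. Rars, the arginine enzyme, was at 19.3 and 24.9 CPM per kb. All 5 were higher in replicate 2, and each gene's range over the 2 libraries overlapped that of its neighbour in the order. Within each library Nars was the highest and Hars stood above Gars and Gars above Rars, while Farsb and Hars changed places. The alpha and beta subunits of the phenylalanine enzyme assemble in equal number, yet Farsa was at 2.77 and 2.12 CPM per kb, far under Farsb in both libraries.

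The lowest cytosolic members, in CPM and per kb, were Vars, Cars and Farsa. Vars, the valine enzyme, which associates with elongation factor 1, was counted at 6.64 and 6.57 CPM in the 2 libraries, or 1.18 and 1.17 CPM per kb. Cars, the cysteine enzyme, was at 10.9 and 13.6 CPM, or 1.65 and 2.06 CPM per kb. Farsa was at 12.6 and 9.60 CPM. In the middle of the set were Wars, Yars and Sars, the tryptophan, tyrosine and serine enzymes, with means of 10.05, 8.31 and 7.82 CPM per kb. From Vars to Nars the cytosolic set spanned 1.18 to 37.9 CPM per kb in the mean of both libraries. Exon length was summed over every annotated transcript, and it is far longer than the longest transcript for some members. Eprs had 18.1 kb of exon but a longest transcript of 5.64 kb, and was at 6.80 ± 2.05 CPM per kb of exon and at 21.8 CPM per kb of that transcript. The 6 highest cytosolic genes, Nars, Farsb, Hars, Gars, Rars and Dars, held the same order on either length.

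**Figure D1:**
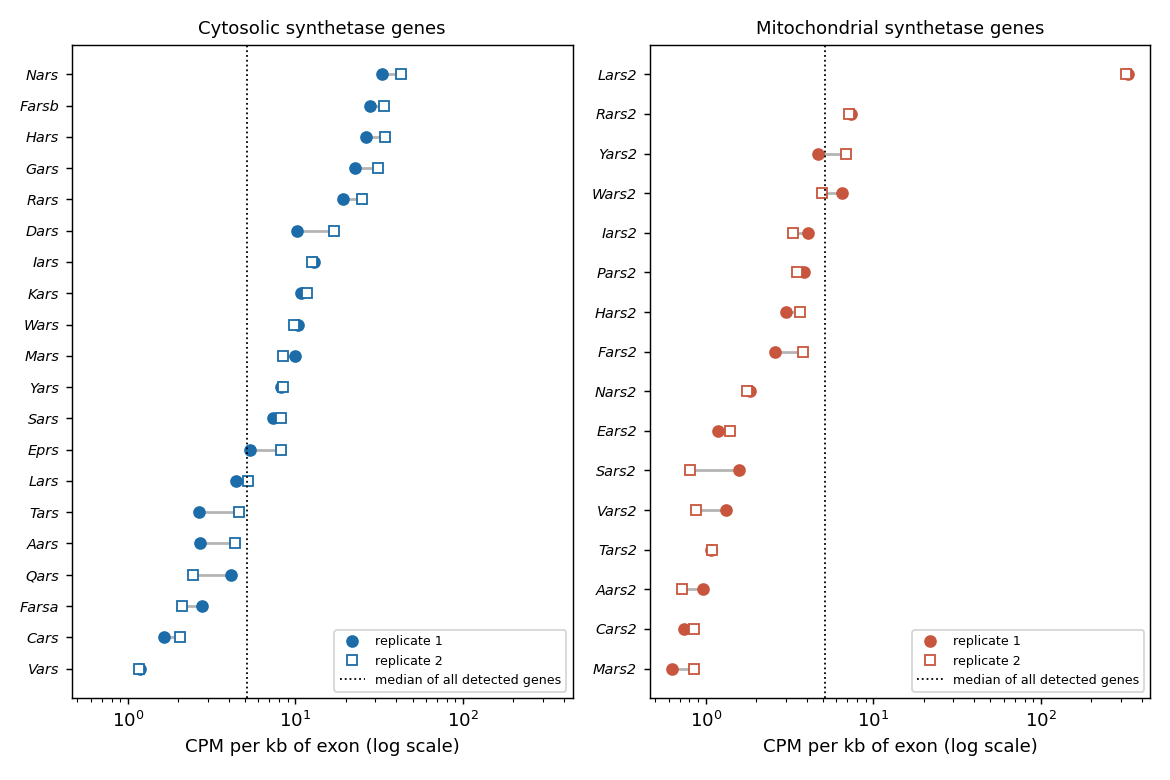
Level of 36 of the synthetase genes in CPM per kb of exon, on a log scale, in replicate 1 (filled circles) and replicate 2 (open squares). Lars2 stands apart at 330 and 324 CPM per kb, while the other mitochondrial genes have means of 0.742 to 7.29. The dotted line marks the median of detected genes with an exon length, at 5.18.

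The mitochondrial synthetases other than Lars2 spread over 0.742 to 7.29 CPM per kb. Rars2, the arginine enzyme, which is linked to pontocerebellar hypoplasia in humans, was counted at 20.5 and 19.9 CPM, or 7.39 and 7.19 CPM per kb. Yars2, the tyrosine enzyme, was at 14.7 and 21.7 CPM, or 4.67 and 6.88 CPM per kb. Wars2, the tryptophan enzyme, was at 38.4 and 29.3 CPM, or 6.46 and 4.94 CPM per kb. Yars2 and Wars2 changed places between the libraries. Iars2, the isoleucine enzyme, was at 36.0 and 29.7 CPM, or 4.05 and 3.34 CPM per kb. Fars2, the phenylalanine enzyme, which in mitochondria is 1 protein and not a pair of subunits, was at 14.9 and 21.7 CPM, or 2.58 and 3.78 CPM per kb.

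Pars2 (proline) and Hars2 (histidine), with means of 3.68 and 3.32 CPM per kb, lay just above Fars2 at 3.18, and Nars2 (asparagine) was lower at 1.80 CPM per kb. Ears2 (glutamate), Vars2 (valine) and Tars2 (threonine) had means of 1.29, 1.10 and 1.09 CPM per kb. Each of these 7 genes was below the median of all detected genes.

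At the low end of the mitochondrial set were Mars2, Cars2 and Aars2 on the scale per kb, and Sars2, Aars2 and Cars2 in CPM. Mars2, the methionine enzyme, was at 7.15 and 9.60 CPM but over 11.3 kb of exon, or 0.633 and 0.850 CPM per kb. Cars2 was at 5.37 and 6.14 CPM, and Aars2, whose variants cause a leukodystrophy in humans, at 4.57 and 3.45 CPM. Sars2, the serine enzyme, was at 5.21 and 2.66 CPM, with a mean of 1.19 CPM per kb. These 4 genes had between 87 and 314 counts in a library.

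Lars2, the mitochondrial leucine enzyme, was the outlier among the members. It had 114513 counts in replicate 1 and 117464 in replicate 2, or 3657 and 3591 CPM (3624 ± 47.0, SD, n = 2). It ranked 11 of all gene symbols by mean CPM, and 50 per kb among detected genes with an exon length. Its line held 75.8% of all synthetase counts in replicate 1 and 72.0% in replicate 2. Per kb of exon it was at 330 and 324, which was 159 and 132 times the median of the other mitochondrial members and 44.6 and 45.0 times the highest of them. It was also 10.1 and 7.53 times the highest other member of either set. Per kb of longest transcript (3.89 kb in place of 11.1 kb of exon) the gap was wider, with Lars2 at 931 and Nars, the next, at 60.1, and Lars2 stood at 283 times the median of the other mitochondrial members. Its cytosolic counterpart Lars, which also serves as a leucine sensor in human cells, was at 4.43 and 5.23 CPM per kb. The next member in CPM, Nars, had 143 and 187.

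The gene of Lars2 lies on chromosome 9 (123366927 to 123462666, plus strand, GRCm38), and no exon of another annotated gene overlaps its exons. Its coding transcript of 3894 bases was aligned to the transcripts of all other genes in GENCODE M21, counting alignments of at least 50 bases at 90% identity or more. These covered 167 bases, or 4.29% of the transcript, all in the 3′ untranslated region and none in the coding part. A run of 72 bases (3278 to 3349 of the transcript) was 98.6% identical to the antisense RNA Gm15564. A run of 97 bases (3233 to 3329) was 94.8% identical to AA474408, an unclassified transcript. Neither of those genes has a count line in these tables. Gm15564 was among the lines of structural RNA that were searched for and not found. At an E value of 1e-05 and any identity, 0 alignments to mitochondrially encoded transcripts were found. Counts per gene do not show where on Lars2 the reads fell, so whether they lie in that stretch was not tested. Rn45s, the line of the nuclear ribosomal RNA precursor, was at 63099 and 49062 CPM. Its log2 ratio of replicate 2 to replicate 1 was -0.27, while that of Lars2 was 0.07 (95% counting interval 0.05 to 0.08). No exon length was found for Rn45s in the annotation, so a match of Lars2 to that RNA may have been missed. Whether the 2 lines share reads was not tested.

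Enzymes of the same amino acid were set side by side in 18 pairs, in which Eprs and Fars2 each appear 2 times. The cytosolic gene was higher per kb in both libraries in 15 pairs, the order differed by library in 2 and the mitochondrial gene was higher in 1, Lars2. The median ratio was 3.41. In the mean of both libraries the widest gap was that of the asparagine enzymes, with Nars at 17.7 times Nars2 in replicate 1 and 24.4 times in replicate 2. For the methionine enzymes Mars was at 15.7 and 9.98 times Mars2, and for the serine enzymes Sars was at 4.70 and 10.3 times Sars2, so the order of the pairs below asparagine depended on the library. Per kb of exon, gaps were narrow for tyrosine, where Yars was at 1.76 and 1.22 times Yars2, and for valine, where Vars was at 0.896 and 1.33 times Vars2. Valine and the alpha subunit Farsa against Fars2 were the pairs whose order turned between libraries. Over the longest transcript in place of all exons the cytosolic gene was higher in 16 of 18 pairs. The order of the gaps also depended on the length used. Over the longest transcript Yars was at 2.62 times Yars2, Wars at 1.57 times Wars2 and Eprs at 16.1 times Ears2. Per kb of exon these mean ratios were 1.49, 1.79 and 5.21.

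**Figure D2:**
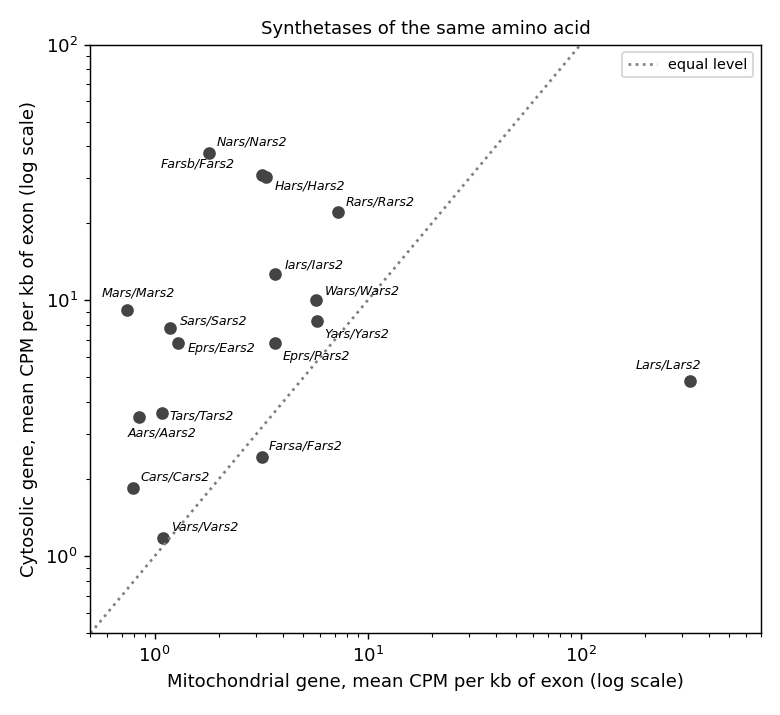
Mean level of the cytosolic gene against that of the mitochondrial gene for the same amino acid in 17 of the pairs, both in CPM per kb of exon on log scales, with the dotted line at equal levels. Points above the line have the higher mean cytosolic level, and Lars/Lars2 lies far to the right at 4.83 against 327.

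The 8 synthetases of the multi-synthetase complex did not share a level. Their median was 10.2 CPM per kb, against 8.07 for the 12 other cytosolic members, and they ran from 3.30 for Qars to 22.1 for Rars. Iars, the isoleucine enzyme, was at 67.9 and 66.1 CPM in the 2 libraries, and Dars, the aspartate enzyme, at 44.4 and 73.8 CPM. Kars, the lysine enzyme of both compartments, was at 47.9 and 52.6 CPM. Iars and Kars were nearly level between libraries while Dars was not. Eprs, which holds the glutamate and the proline enzyme in 1 chain, was at 96.9 and 149 CPM. Mars, the methionine enzyme, was at 34.0 and 29.0 CPM and Lars at 23.8 and 28.1 CPM. Qars, the glutamine enzyme, was at 27.2 and 16.2 CPM. The scaffolds were Aimp2 at 9.81, Eef1e1 at 5.24 and Aimp1 at 5.04 CPM per kb, within the range of the complex's enzymes.

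The 2 libraries are replicates of 1 group, so their difference compares libraries and not conditions. It is given as a log2 ratio of replicate 2 to replicate 1 after TMM scaling (a trimmed-mean correction of library totals), with exact 95% intervals that cover counting error only. More synthetase genes had the higher level in replicate 2. Of 37, 28 had a log2 ratio above 0, against 49.2% of the 13089 genes with a mean of at least 1 CPM. Their median log2 ratio was 0.25, against -0.01 for those genes. Among cytosolic members 17 of 20 were above 0, with a median of 0.35 on the log2 scale, and among mitochondrial members 11 of 17, with a median of 0.07. With library totals alone 22 of 37 were above 0, since Iars, Wars, Vars, Lars2, Rars2 and Nars2 turned to the other side. The share above 0 was then 59.5%, against 41.5% of all genes. That scaling moved the median log2 ratio of all genes to -0.10, that of the mitochondrial set to -0.03 and that of the cytosolic set to 0.25.

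Most genes at this depth, synthetases or not, differed between libraries by more than counting error. The interval lay wholly above 0 for 21 of 37, against 36.3% of all genes, and wholly below 0 for 7, against 36.7%. Past 1.5-fold, 6 members were higher in replicate 2, against 12.6% of all genes, and 2 were higher in replicate 1, against 14.3%. The 8 of 37 together compare with 26.9% of all genes, a share near the background. Past 2-fold there were 0 members in either direction, against 4.51% towards replicate 2, 5.75% towards replicate 1 and 10.3% in all. The median coefficient of variation of the members other than Lars2 was 16.7%, and that of the 9296 genes in the same range of levels was 15.2%.

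The 6 genes past 1.5-fold towards replicate 2 were Tars, Dars, Aars, Eprs, Yars2 and Fars2. Tars, the threonine enzyme, was counted at 15.8 and 27.2 CPM, which gave a log2 ratio of 0.88 (0.72 to 1.04). Dars had a log2 ratio of 0.83 (0.73 to 0.92). Aars, the alanine enzyme, in which a mouse mutation that impairs proofreading causes loss of Purkinje cells, was at 25.0 and 40.2 CPM and had a log2 ratio of 0.78 (0.65 to 0.91). These 3 charge different amino acids and only Dars belongs to the multi-synthetase complex. Eprs had a log2 ratio of 0.72, Yars2 of 0.65 and Fars2 of 0.64. The last 2 no longer passed 1.5-fold with library totals alone. Towards replicate 1 the genes were Sars2, with a log2 ratio of -0.86 (-1.27 to -0.49) from 163 and 87 counts, and Qars, with -0.65 (-0.81 to -0.50) from 852 and 530 counts. Qars was thus the cytosolic member that went furthest against the rest.

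**Figure D3:**
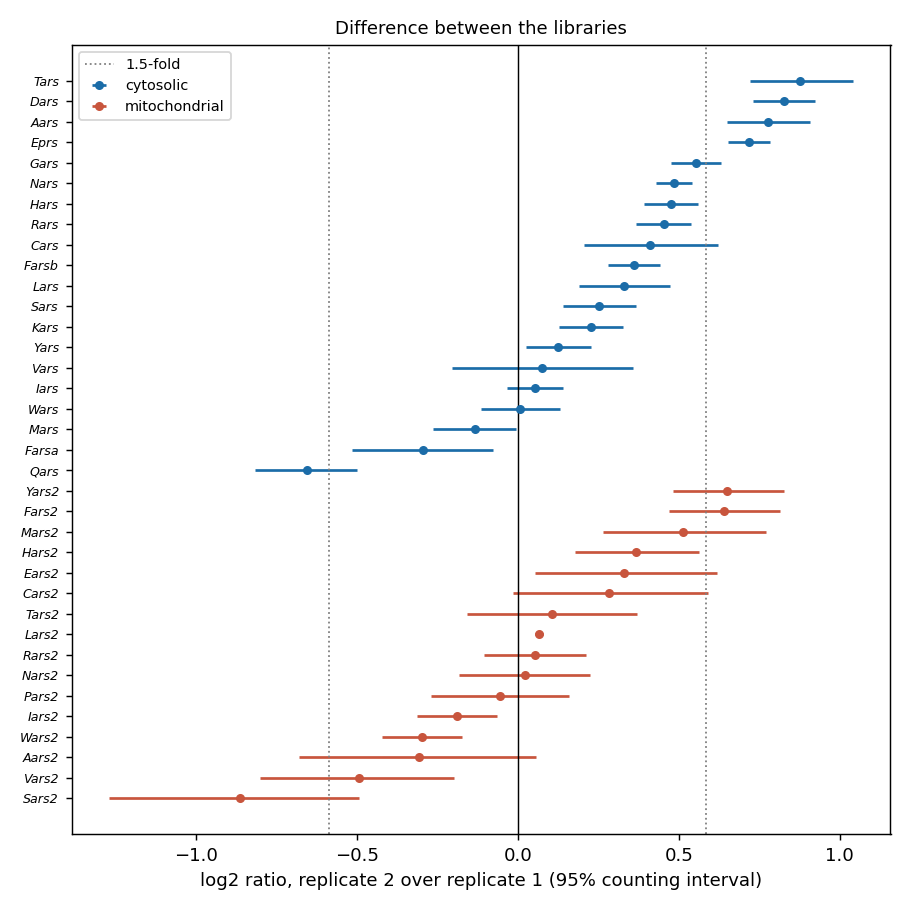
Log2 ratio of replicate 2 to replicate 1 for 36 of the synthetase genes after TMM scaling, with 95% counting intervals, and dotted lines at 1.5-fold. Of the 20 cytosolic genes 14 have an interval wholly above 0 and 3 wholly below, against 36.3% and 36.7% of all genes. Tars is highest at 0.88, and Qars (-0.65) and Sars2 (-0.86) lie furthest on the other side.

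The cytosolic enzymes were also split by structural class, after the values were seen. Of 10 class II genes, 9 had an interval wholly above 0, with Farsa the exception at -0.29, and the median log2 ratio was 0.48. Of all genes 36.3% had an interval wholly above 0 and 36.7% one wholly below. Of 9 class I genes, 4 had an interval wholly above 0 and 2 wholly below, Mars and Qars, with a median of 0.08. Eprs, which holds a catalytic domain of each class, was left out of both. The difference between the classes was not tested, since genes are not replicates. Among mitochondrial genes the medians of the classes were nearly equal, at 0.07 for class I and 0.06 for class II.

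Levels of other cells' markers also moved between the libraries. The summed level of the 4 oligodendrocyte markers was 163 CPM in replicate 1 and 119 CPM in replicate 2. For the 4 astrocyte markers it was 46.2 and 54.8 CPM. Gfap and Slc1a3 were higher in replicate 2. For Aqp4 (16.8 and 14.3 CPM) and Aldh1l1 (0.958 and 0.887 CPM) the counting interval of the log2 ratio spanned 0. For the 6 interneuron markers it was 73.8 and 121 CPM, a difference carried by Gad1 and Gad2. The intervals of Slc32a1 (0.703 and 0.367 CPM) and Sst (3.16 and 2.17 CPM) spanned 0. The 6 markers of the CA fields summed to 130 and 150.1 CPM, but only Pvrl3 (8.72 and 54.3 CPM) and Amigo2 were higher in replicate 2. The other 4 were lower, though the interval of Bok spanned 0, and the list median log2 ratio was -0.15. The 3 endothelial ones summed to 13.9 and 14.4 CPM and the 8 granule cell ones to 4898 and 4928 CPM. Single granule cell markers moved both ways, with log2 ratios of 0.48 for Dsp and -0.29 for Calb1. The 4 mossy cell markers summed to 7.22 and 3.03 CPM and the 4 microglial ones to 1.05 and 1.28 CPM. The part of these differences in the ratios of the synthetases was not tested. In pulled-down RNA from tissue, a change in the number of cells of a type and in RNA per cell cannot be told apart.

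The transcription factor ATF4, made when amino acids or charged tRNAs run short, binds a composite C/EBP-ATF element and drives several cytosolic synthetase genes in mammalian cells. The form TGATGNAA was therefore searched on both strands of RefSeq promoters (250 bases before to 50 after each start, GRCm38.p6), after the values were known. Promoters were matched for 26 of 37 members (27 promoters) and not for the other 11. The unmatched members include the cytosolic Cars, Hars, Lars, Mars, Nars, Rars, Vars and Wars, so part of the cytosolic set was not searched. Shares of members count genes, while shares of all promoters count promoters. Of the 26, 5 held the motif (19.2%), all in the cytosolic set, against 3.97% of the 32851 promoters of that length. They were Aars, Gars, Iars, Tars and Yars. The stricter TGATGCAA was found in 4 of these and in 0.895% of all promoters, and overlaps TGATGNAA by construction. The windows printed here show it in 3 genes, Iars, Tars and Yars, since not every match is printed. A window of 30 bases around 1 match in each gene is shown because these genes include 2 of the 3 members with the highest ratios, Tars and Aars. Capitals mark the match, which reads as its reverse complement in all but Yars.
Aars (chr8:111033840-111033869, plus strand): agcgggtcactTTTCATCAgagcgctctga
Gars (chr6:55037960-55037989, plus strand): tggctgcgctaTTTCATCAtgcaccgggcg
Iars (chr13:49682126-49682155, plus strand): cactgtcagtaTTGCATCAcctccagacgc
Tars (chr15:11399655-11399684, minus strand): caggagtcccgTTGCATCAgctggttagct
Yars (chr4:129189895-129189924, plus strand): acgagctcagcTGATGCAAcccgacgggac
The 250 bases upstream of the RefSeq start of Tars (chr15:11399659-11399908, minus strand), the member with the highest ratio, follow with the match in capitals.
Tars upstream: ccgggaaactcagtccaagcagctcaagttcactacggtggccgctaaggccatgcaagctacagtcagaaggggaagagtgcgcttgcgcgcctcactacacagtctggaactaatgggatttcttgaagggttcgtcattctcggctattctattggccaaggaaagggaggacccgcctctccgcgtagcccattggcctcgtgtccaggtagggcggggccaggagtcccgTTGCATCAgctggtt
The log2 ratios of the 5 genes were 0.88 for Tars, 0.78 for Aars, 0.55 for Gars, 0.13 for Yars and 0.05 for Iars, so genes with the motif lay at both ends of the cytosolic range above 0. Dars and Eprs, with ratios of 0.83 and 0.72, have promoters in the table and no match in this window. A match is a sequence description only. Of the other motifs searched, CACGTG was found in 5 of 26 members and 7.15% of promoters, and CCAAT in 12 of 26 and 37.4%.

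Other genes of the amino acid response were more evenly spread around 0. Of 20 genes of that list 18 were detected, against 38.1% of all gene symbols. Their median log2 ratio was -0.11 and 7 of 18 were above 0, against 49.2% of all genes. Atf4 itself was counted at 58.9 and 81.1 CPM, with a log2 ratio of 0.55 (0.47 to 0.64). Asns, the asparagine synthetase gene and a standard ATF4 target, was at 66.9 and 75.5 CPM. The transcription factor gene Ddit3, whose exons overlap those of Mars, was at 5.65 and 8.38 CPM. Its log2 ratio after TMM scaling was 0.65 (0.38 to 0.94), past 1.5-fold towards replicate 2, though the CPM values alone fall just short of that. Phgdh and Psph, enzymes of serine synthesis, went past 1.5-fold the other way, with log2 ratios of -0.62 and -0.71. Trib3 had 2 counts in replicate 1 and 0 in replicate 2, and Nupr1 had 0 and 1. Trib3 and Nupr1 were thus under the limit that a count of 0 allows, while Atf4 and Asns were well counted.

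Among genes that sense uncharged tRNA or act on the same kinase pathway, 7 of 9 had a log2 ratio above 0, against 49.2% of all genes. The median was 0.32. The interval lay wholly above 0 for 5 of 9, against 36.3% of all genes. Eif2ak4, the kinase GCN2, was at 22.7 and 21.6 CPM, with a log2 ratio of 0.03 (-0.13 to 0.18) after TMM scaling. Impact, which inhibits GCN2 and is abundant in neurons, was at 122 and 147 CPM, and Eif2s1, the substrate of the kinases, at 94.1 and 112 CPM. The haem-regulated kinase gene Eif2ak1 was at 104 and 61.9 CPM. Impact and Eif2s1 were thus higher in replicate 2, Eif2ak1 higher in replicate 1 and Eif2ak4 level.

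Further genes of tRNA charging were read beside the synthetases. The detection counts of these lists compare with 38.1% of all gene symbols detected. Tarsl2, a threonine enzyme outside the naming pattern, was at 3.49 ± 0.328 CPM per kb, within the spread of Tars at 3.64 ± 1.37. All 5 genes of tRNA editing and release were detected, and Dtd1, which removes D-amino acids from tRNA, was the highest at 264 and 206 CPM. Of 9 partners of mitochondrial charging and elongation that were found, each was detected, and their median was 13.1 CPM. Of their ratios 5 of 9 were above 0, against 49.2% of all genes. The partners include the subunits of the amidotransferase that turns glutamate into glutamine on mitochondrial tRNA. Of these, Gatc was at 85.9 CPM per kb, Qrsl1 at 3.35 and Gatb at 3.01. Gatc was therefore far above its partners. The selenocysteine genes were all detected (6 of 6), with Sepsecs the lowest at 4.18 and 5.26 CPM and Eefsec at 18.5 and 5.84 CPM (log2 ratio -1.56). All 18 genes of tRNA processing and export were detected, with a median log2 ratio of 0.06, and Xpot, the tRNA exporter, stood at 114 and 108 CPM.

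**Figure D4:**
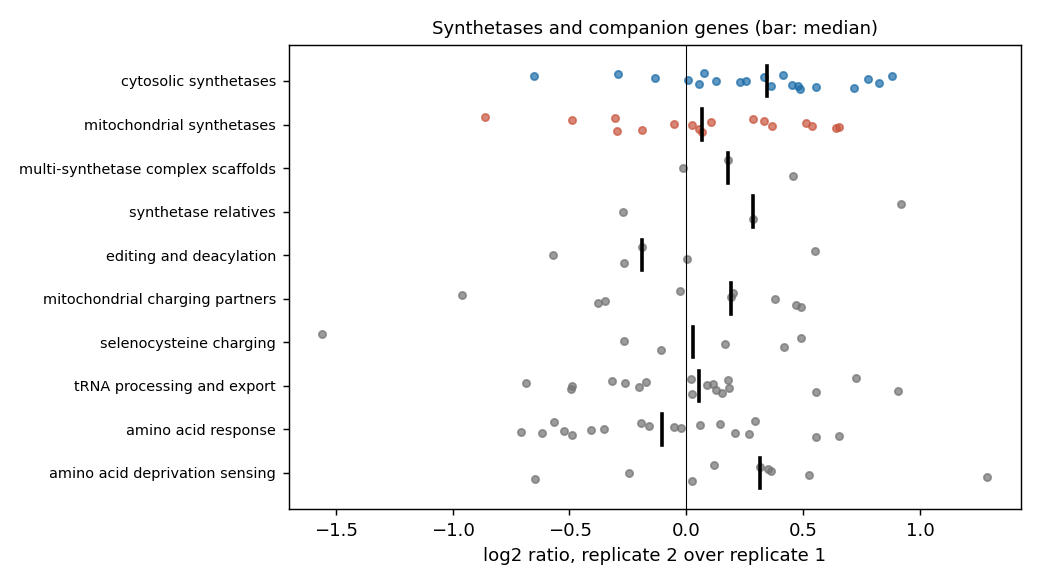
Log2 ratio of replicate 2 to replicate 1 for genes with a mean of at least 1 CPM in each list, 1 point per gene, with a bar at the list median. The cytosolic synthetases have a median of 0.35 and the amino acid response genes a median of -0.11.

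Some members share sequence with a neighbour or copy, and their counts are uncertain to that extent. For overlaps on the opposite strand this depends on the strand setting of the counting, which is not given in the sources used here. Exons of other genes overlapped 24.2% of exon bases of Iars2, mostly those of Rab3gap2 on the opposite strand, and 15.1% of Aars, mostly those of Exosc6 on the same strand. On the opposite strand Fars2, which was past 1.5-fold, shared 10.7% of its exon bases, 501 of them with Nrn1, and Farsb shared 9.47%, with Sgpp2. Hars and Hars2 lie head to head on chromosome 18 and share 195 exon bases. Mars shares 68 exon bases with Ddit3 on the opposite strand. Iars has a processed pseudogene, Gm4849, and 49.9% of its coding transcript matched that copy at 90% identity or more. Leaving out the members that share more than 5% of exon bases moved the cytosolic median log2 ratio from 0.35 to 0.25 and the mitochondrial one from 0.07 to 0.06.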

How the data were processed

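The deposited files are raw counts per gene symbol. The submitters' processing notes name the aligner STAR 2.0.0e, the counter HTSeq and build mm10. No source used here gives the annotation or the strand setting. HTSeq's summary lines and the line unknown, which held 0 counts, were left out, which kept 65.0% of counts in replicate 1 and 64.9% in replicate 2. CPM is the count per 1000000 counts on gene lines, and values are mean ± SD over 2 libraries. Exon lengths, overlaps and coordinates came from GENCODE M21 (GRCm38), in which all 37 members were matched, and alignments from BLAST 2.17.0. Log2 ratios used edgeR 4.0.16 (TMM, prior count of 2) in R 4.3.3, with DESeq2 1.42.0 size factors as an alternative, and the ratio calculation was tested on simulated data. Intervals are exact (Clopper-Pearson). With 1 group there is no test between conditions and no p-value. The labels mention no molecular identifiers, so reads may not be independent molecules and intervals cover counting error only.

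The members and lists were chosen with earlier results of these data known. Values per library are printed for the 5 highest and 3 lowest members of each set, the complex, Gars, Kars, Lars2, members past 1.5-fold and genes of the companion lists. Other members are given mostly by their mean per kb and in pairs, so that all but 1 are accounted for. Pet112 was not found (its newer symbol Gatb was), nor were 7 of the 11 lines of structural RNA searched for. The other 4 were Rn45s, Rn4.5s (0 counts), Rpph1 (0 counts) and Rmrp (3 and 2 counts). Values of 1 mitochondrial member and 1 sequence window are not reported here, and all counts and medians include that member.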

Additional observations from a re-analysis of the deposited data

Results flagged for a closer look

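Counts outside the gene lines entered no comparison. They are given here because data outside the main measurement held a signal above the limit that a count of 0 allows. Of everything counted, reads with more than 1 alignment were 15.7% and 15.5% in replicates 1 and 2. Reads on no annotated feature were 16.7% and 17.0%, and reads on several genes were 2.61% and 2.56%. Which of them came from synthetase genes cannot be read from the files. Groups of 2 libraries allow no check for an outlying library.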

How the results depend on the processing

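No paired analysis was possible because there is 1 group. Of 59 summary values under another setting 42 stayed within the allowance, which was the SD between libraries for levels, 1.5 times for counts and 0.16 for log2 medians, the median half-width of the members' counting intervals. The cytosolic median was 41.2 to 46.2 CPM and the mitochondrial one 11.98 to 12.26 CPM with 1 library left out. The mitochondrial median was 11.98 CPM without Lars2 and 13.4 CPM with totals that leave out Rn45s and Lars2, and the latter gave 9.32 CPM per kb for the cytosolic median. Per kb of longest transcript the cytosolic and mitochondrial medians were 13.6 and 3.51, and per kb of longest coding length 24.5 and 7.44. The cytosolic to mitochondrial ratio of 3.60 in CPM was 3.22 without Gars and Kars, 2.58 as geometric means, 3.32 per kb of exon and 3.92 per kb of longest transcript. The excess of Lars2 over the median of the other mitochondrial genes, 308-fold in CPM, was 108-fold over the highest of them, 146-fold per kb of exon and 283-fold per kb of longest transcript. Coding length, the scale per kb for both ratios, the set and member ratios under other scalings and the omission of overlapping members were chosen after the data were seen. Of 74 member ratios under another scaling 66 stayed within their own counting interval's half-width, and the 8 others all arose with library totals alone. The number past 1.5-fold was 6 with library totals alone and 7 at a mean of at least 10 CPM, against 8.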
